A study of Mus musculus with 19 samples.

Results

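The proteasome subunit genes were followed through thymocyte development in the RNA counts of a CITE-seq study of mouse thymus, in which RNA and surface proteins were read from the same cells. They were taken as every gene whose symbol begins with *Psma*, *Psmb*, *Psmc*, *Psmd*, *Psme*, *Psmf* or *Psmg* followed by a digit, leaving out pseudogenes marked -ps, which gave 50 of the 28692 genes counted. By function these were 7 subunits of the 20S alpha ring, 4 structural subunits of the beta ring, 3 constitutive catalytic subunits (*Psmb5*, *Psmb6*, *Psmb7*), 3 immunoproteasome catalytic subunits (*Psmb8*, *Psmb9*, *Psmb10*) and 2 subunits limited to certain tissues (*Psma8*, *Psmb11*). The 19S regulatory particle gave 6 ATPases and 11 non-ATPase subunits, and there were 7 assembly factors and 6 activators or inhibitors (*Psme1*, *Psme2*, *Psme2b*, *Psme3*, *Psme4*, *Psmf1*). The symbol rule also took *Psmc3ip*, a meiotic recombination factor that is no proteasome subunit and is kept here only so that every gene of the rule is accounted for.

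The proteasome degrades proteins that carry ubiquitin. Its 20S core is a barrel whose beta rings hold the protease sites, and the 19S particle at its ends recognizes, unfolds and feeds in the substrate. In lymphoid cells and under interferon the 3 constitutive catalytic subunits can be replaced by *Psmb8* (LMP7), *Psmb9* (LMP2) and *Psmb10* (MECL-1), which changes the peptides that are made for MHC class I (MHCI) molecules, while *Psme1* and *Psme2* encode the PA28 cap, itself an interferon-inducible activator. *Psmb11* encodes the beta5t subunit of the thymoproteasome of cortical epithelial cells, and *Psma8* encodes an alpha subunit of the testis.

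Cells came from 17 mice, all female and 4 to 8 weeks old, in experiments numbered 6, 7 and 8. Thymocytes sorted as CD5+TCRβ+ came from 3 wild-type (WT) mice, 2 MHCI-/- mice (*B2m*-/-) and 2 MHCII-/- mice (*H2-Ab1*-/-). Unsorted thymocytes came from 2 WT mice and from 4 T cell receptor (TCR) transgenic lines with 2 mice each, namely AND (MHCII-specific) and F5 (MHCI-specific, its transgene under a CD2 promoter), both on *Rag1*-/-, and OT-I (MHCI-specific) and OT-II (MHCII-specific). AND, MHCI-/- and OT-II thymocytes are CD4-fated, and F5, MHCII-/- and OT-I thymocytes are CD8-fated. The OT mice and unsorted WT mice were all run in experiment 8, at another site than experiments 6 and 7, so the site and these groups cannot be told apart.

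Depth ran from 8603710 to 57871081 unique molecular identifiers (UMIs) per mouse over 69503 cells. The 3 mice in the second set of lanes of experiment 8 (OT-I replicate 2, OT-II replicate 2 and WT replicate 5) stood apart, since all 50 genes together took 0.4952% to 0.5307% of their UMIs against 0.7392% to 0.9308% in the other 14 mice. Clusters were given "-like" names from lists of marker genes, none of them proteasome genes, and no proteasome gene was among the 2000 genes used to cluster. The classes were still formed from RNA of the same cells, so a difference between classes describes those classes. *B2m* was at 11.6 and 21.0 CPM (UMIs scaled to a library total of 1000000) in signaled double-positive (DP)-like cells of the MHCI-/- mice against 211.1 to 265.6 CPM in sorted WT. *H2-Ab1* gave no such check of the mice labelled MHCII-/-. It was at 14.96 and 15.54 CPM in their CD8 SP-like cells against 0 to 0.374 CPM in sorted WT, and at 0 and 1.80 CPM in their signaled DP-like cells against 0.732 to 14.7 CPM. The labels and methods do not say which part of the gene the allele lacks, so counts at the 3′ end need not show the deletion. These 2 mice gave 21 and 32 mature SP-like and 598 and 849 CD8 SP-like cells, whereas sorted WT mice gave 480 to 890 and 159 to 361. Of 71355 barcode sequences, 695 occurred in more than 1 lane, and no pair of lanes shared over 0.432%.

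The promoter sequences of 5 catalytic subunit genes, all but *Psmb7*, are shown because the results turn on how the immunoproteasome genes and their constitutive counterparts parted. Each is the 250 bases before the RefSeq gene start in GRCm38.p6, written 5′ to 3′ on the strand of the gene. The GENCODE annotation of the same build starts *Psmb8* and *Psmb9* farther upstream, so that these 2 windows lie inside the annotated genes, and it overlaps the near ends of the *Psmb10* and *Psmb5* windows. Capitals mark matches, on either strand, to the letters GAAANNGAAA (interferon-stimulated response element), TTCNNNGAA (gamma-activated site), TGACNNNGC (core of the antioxidant response element) or CCAAT, the box named after its letters.
Psmb8, chr17:34197945-34198194, plus strand: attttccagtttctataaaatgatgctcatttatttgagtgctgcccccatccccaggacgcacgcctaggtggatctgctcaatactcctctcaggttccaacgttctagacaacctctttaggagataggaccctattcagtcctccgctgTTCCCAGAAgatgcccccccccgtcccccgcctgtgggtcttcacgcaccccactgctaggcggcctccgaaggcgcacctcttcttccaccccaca
Psmb9, chr17:34187331-34187580, minus strand: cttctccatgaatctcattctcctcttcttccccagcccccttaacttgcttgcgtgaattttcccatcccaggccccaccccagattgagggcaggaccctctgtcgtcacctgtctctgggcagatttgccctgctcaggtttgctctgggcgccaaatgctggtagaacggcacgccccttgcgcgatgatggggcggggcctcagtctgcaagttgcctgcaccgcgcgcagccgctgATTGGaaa
Psmb10, chr8:105938393-105938642, minus strand: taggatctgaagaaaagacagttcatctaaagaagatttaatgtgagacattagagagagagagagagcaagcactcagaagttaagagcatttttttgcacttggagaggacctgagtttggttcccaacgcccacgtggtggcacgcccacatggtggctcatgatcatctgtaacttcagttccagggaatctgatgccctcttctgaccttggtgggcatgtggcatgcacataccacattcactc
Psmb5, chr14:54617996-54618245, minus strand: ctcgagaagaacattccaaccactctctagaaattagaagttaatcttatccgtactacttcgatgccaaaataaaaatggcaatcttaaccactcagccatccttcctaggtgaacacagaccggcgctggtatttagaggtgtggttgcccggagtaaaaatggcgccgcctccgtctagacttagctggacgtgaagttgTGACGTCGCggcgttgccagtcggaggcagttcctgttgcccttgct
Psmb6, chr11:70525107-70525356, plus strand: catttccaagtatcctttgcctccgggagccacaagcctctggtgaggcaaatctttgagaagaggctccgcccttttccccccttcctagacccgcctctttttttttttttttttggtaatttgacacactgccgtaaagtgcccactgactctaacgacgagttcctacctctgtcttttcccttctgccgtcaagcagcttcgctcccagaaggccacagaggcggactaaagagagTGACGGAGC

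Of the immunoproteasome windows, that of *Psmb8* held a gamma-activated site match, TTCCCAGAA, at -97 to -89 from the start. That of *Psmb9* held a CCAAT box read on the other strand (ATTGG) at -8 to -4 and overlapped the annotated start of *Tap1*, a peptide transporter gene that runs the opposite way. The window of *Psmb10* held no match, which says only that these letters were not in it. The *Psmb5* and *Psmb6* windows held the antioxidant core, as TGACGTCGC at -47 to -39 in *Psmb5* and as TGACGGAGC at -9 to -1 in *Psmb6*. Among all 27025 promoter windows of that length, 3.04% held the interferon element, 7.18% the gamma-activated site, 10.1% the antioxidant core and 34.5% the CCAAT box. Among the 42 windows of proteasome genes the counts were 3, 2, 5 and 15, and the interferon element was in those of *Psmd4*, *Psmd9* and *Psmb3*. These are matches of letters, not binding sites.

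Over all cells the 50 genes took 0.7815% of UMIs, of which the immunoproteasome catalytic genes took 0.09263 and the constitutive ones 0.06372 percentage points. The summed share was highest in cycling-like cells, at 0.897% ± 0.143 (SD, n = 17 mice), followed by negative selection-like cells at 0.857% ± 0.158 (n = 12). It was 0.766% ± 0.155 in signaled DP-like cells (n = 17), 0.677% ± 0.123 in quiescent DP-like cells (n = 17), 0.629% ± 0.114 in mature single-positive (SP)-like cells (n = 15) and 0.539% ± 0.112 in gamma-delta T-like cells (n = 7). Neighbors in this order differed by less than the SD over mice, a spread that includes the second set of lanes and does not use the pairing by mouse. The gamma-delta T-like value came from the AND (*Rag1*-/-), OT-I and OT-II mice and from WT replicate 5 with 11 cells. Among them OT-I replicate 2, OT-II replicate 2 and WT replicate 5 were of the second set of lanes. The low value is thus not shown to be a trait of gamma-delta T cells. *Psma8* was counted 92 times and *Psmb11* 111 times in all cells, too rarely to test, which leaves 48 genes, of which 47 or 48 passed the filter on low counts in each comparison.

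**Figure D1:**
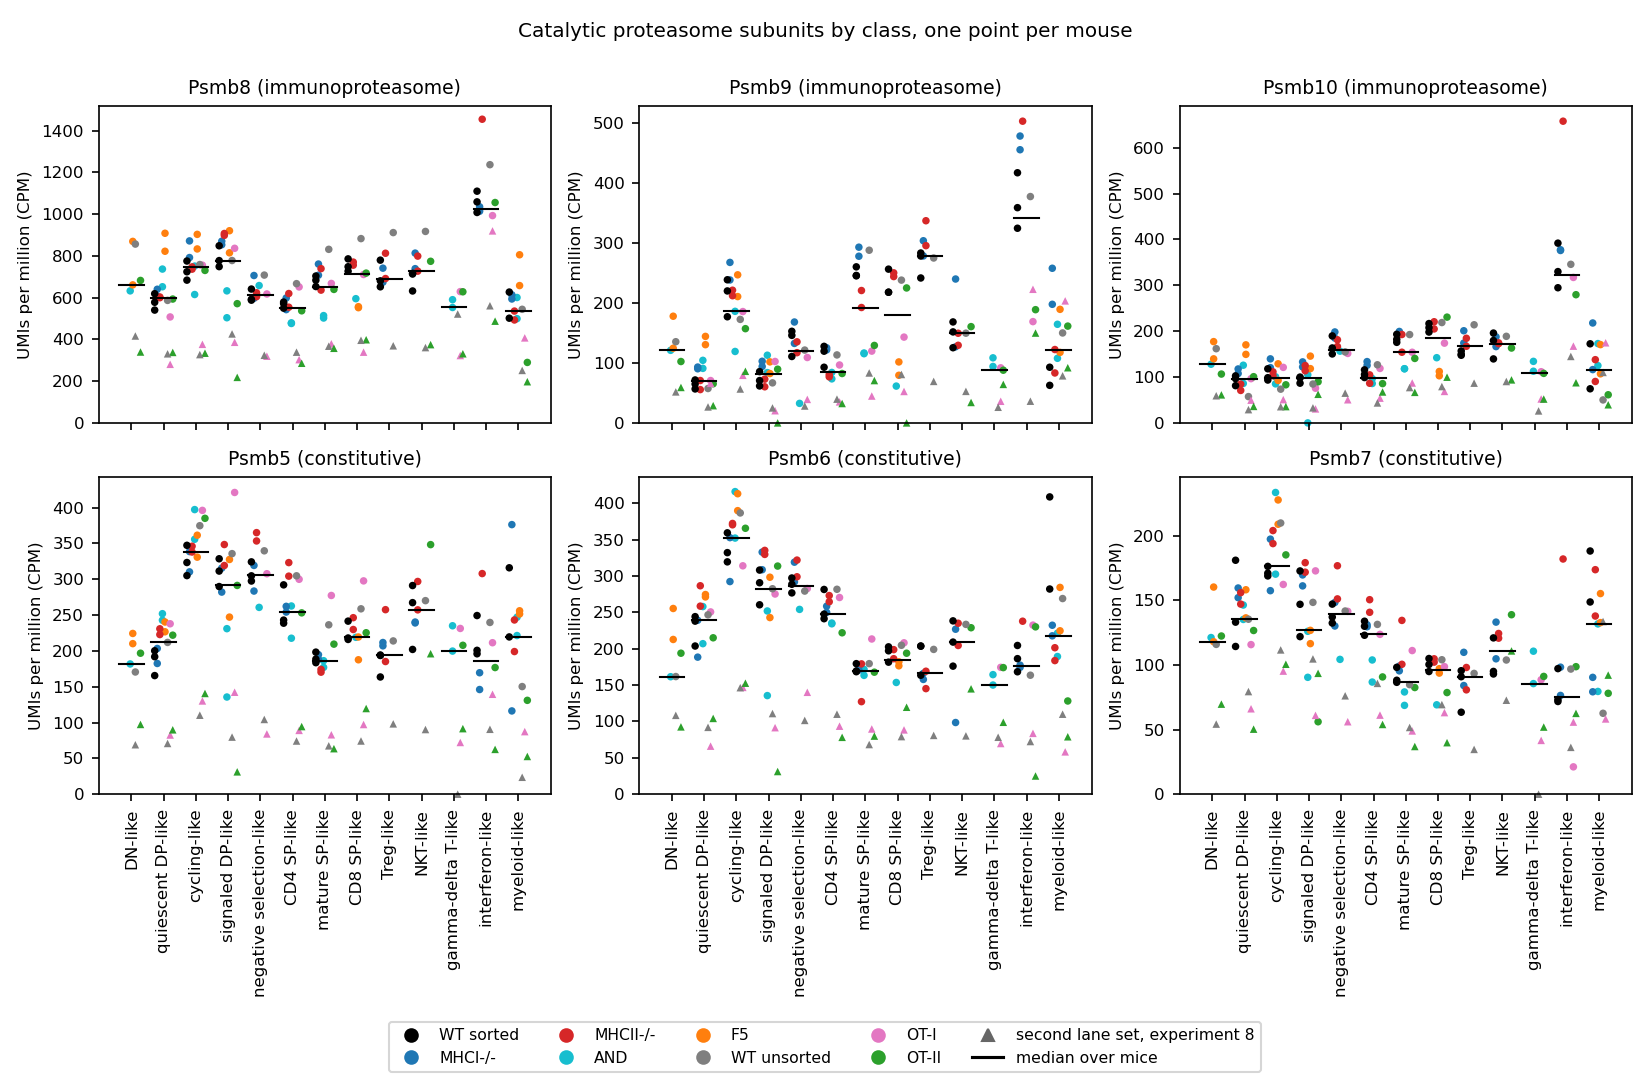
CPM of the 6 catalytic subunit genes (y axis, linear, each with its own scale) in 13 cell classes (x axis), with a point for each mouse colored by group and a line at the median. *Psmb9* and *Psmb10* have higher medians in mature SP-like, CD8 SP-like and interferon-like cells than in signaled DP-like cells, with overlapping points. The constitutive genes have their highest medians in cycling-like cells. The triangles of the second set of lanes lie below the line in most classes, with exceptions such as *Psmb9* in myeloid-like cells.

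Whether proteasome genes change as thymocytes begin positive selection was addressed by comparing signaled DP-like with quiescent DP-like cells within 17 mice. Of 47 genes tested, 29 rose and 2 fell at an adjusted p under 0.05 (edgeR quasi-likelihood test with the mouse as block), where 26.9% of all genes tested were higher and 26.6% lower. The median log2 fold change was 0.25 over the proteasome genes and -0.01 over all genes tested. The 19S particle carried many of the calls, with 4 of 6 ATPases and 9 of 11 non-ATPase subunits higher. *Psmd14*, the deubiquitinase of the lid, had a median of 130.5 CPM (62.3 to 161.5) in signaled and 85.5 CPM (16.5 to 138.5) in quiescent cells and was higher in 14 of 17 mice, with overlapping ranges. Its log2 fold change was 0.62 ± 0.090 (SE; adjusted p = 1.176e-07). The other large increases were those of *Psma7* (0.57), *Psme2* (0.56) and *Psme3* (0.52), which encode an alpha ring subunit, a chain of the PA28 cap and a nuclear activator. The genes that fell were the assembly factor *Psmd9* (-0.34) and the lid subunit *Psmd3* (-0.24).

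In the same step genes of both catalytic sets rose. *Psmb5*, which encodes the chymotrypsin-like site, had a median of 291.3 CPM (31.2 to 421) in signaled and 211.8 CPM (70.8 to 251.9) in quiescent cells and was higher in 14 of 17 mice. Its log2 fold change was 0.53 ± 0.086 (adjusted p = 9.36e-07), and that of *Psmb6* was 0.29 ± 0.080 (adjusted p = 0.002363), while *Psmb7* stood at 0.13 ± 0.078 and was not called (adjusted p = 0.1438). *Psmb8*, the counterpart of *Psmb5*, had a median of 778.1 CPM (218.1 to 920.8) against 599.9 CPM (280.7 to 908.7), higher in 12 of 17 mice, with a log2 fold change of 0.32 ± 0.088 (adjusted p = 0.002135). *Psmb10* gave 0.23 ± 0.093 (adjusted p = 0.03336) and *Psmb9* 0.08 ± 0.090, which was not called (adjusted p = 0.454). *Pomp*, the maturation factor that assembles new 20S cores, rose by 0.97 ± 0.074 on the log2 scale (adjusted p = 1.865e-15), from a median of 269.5 to 561.4 CPM and in 17 of 17 mice. Of the interferon response list, 0 of 12 genes tested rose and 9 fell, and of the MHCI processing list 4 of 11 rose and 2 fell. With the mice of experiments 6 and 7 alone, without the second set of lanes, 26 proteasome genes rose and 2 fell (22.6% and 25.5% of all genes tested). In experiment 8 alone (6 mice) 18 rose and 1 fell, with 41% of all genes tested called in either direction, and in the lineage-restricted mice alone (12 mice) 8 rose and 2 fell, with 37.2% called.

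A second comparison, of mature SP-like with signaled DP-like cells in 15 mice, addressed the end of positive selection, and here the catalytic genes parted. No F5 mouse had 10 mature SP-like cells, and the MHCII-/- mice had 21 and 32. The AND mice had 1188 and 717 and the MHCI-/- mice 1063 and 1114. Among lineage-restricted mice the class was thus drawn mainly from CD4-fated ones, and CD8 SP-like cells are compared apart below. *Psmb9* and *Psmb10* rose and all 3 constitutive genes fell, whereas the direction of *Psmb8* depended on the scaling. In all, 14 of 48 genes rose and 17 fell, against 29.7% higher and 23.2% lower among all genes tested. The medians were -0.03 and 0.04 on the log2 scale, so the genes as a whole were not shifted one way. In experiment 8 alone 10 rose and 9 fell (30.9% of all genes tested called in either direction), and in the lineage-restricted mice alone 9 rose and 8 fell (31.3%). *Psmb9* had a median of 192.6 CPM (44.8 to 293.4) in mature and 73.0 CPM (0 to 112.98) in signaled cells, and it was higher in the mature cells of 15 of 15 mice, although the ranges over mice overlapped. Its log2 fold change was 2.02 ± 0.099 (adjusted p = 4.195e-28). *Psmb10* had medians of 154.0 CPM (66.6 to 199.3) and 89.6 CPM (0 to 133), was also higher in 15 of 15 mice, and gave 1.28 ± 0.088 (adjusted p = 9.511e-21).

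*Psmb8* was thus the exception among the immunoproteasome genes. In CPM, which divides by the library total, its median was 653.4 (357.4 to 831.7) in mature and 777.7 (218.1 to 907.7) in signaled cells, and it was higher in the mature cells of 3 of 15 mice. With the TMM factors of the test, which center the bulk of genes, its log2 fold change was 0.25 ± 0.074 (adjusted p = 0.002768). With library totals alone it was -0.18 (adjusted p = 0.008191), and in the mice of experiments 6 and 7 alone, with TMM, it was 0.13 (adjusted p = 0.09444). Scaling by library totals alone moved the median of all genes from 0.04 to -0.38 in this comparison. It left 6 proteasome genes higher and 35 lower, where 14.5% of all genes tested were higher and 55.2% lower, while *Psmb9* stood at 1.63 and *Psmb10* at 0.87.

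The constitutive genes were lower on both scales. *Psmb5* had a median of 186.2 CPM (63.5 to 277.3) in mature and 291.3 CPM (31.2 to 421) in signaled cells and was higher in the mature cells of 2 of 15 mice, with a log2 fold change of -0.20 ± 0.079 (adjusted p = 0.03141). *Psmb6* had medians of 169.4 and 282.5 CPM and fell by 0.30 ± 0.081 (adjusted p = 0.001109). *Psmb7* had medians of 86.5 and 146.9 CPM and fell by 0.29 ± 0.078 (adjusted p = 0.001111). *Pomp* fell by 0.80 ± 0.074 on the same scale, in 15 of 15 mice (adjusted p = 3.72e-15).

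The 19S particle went with the constitutive genes in this comparison, with 4 of 6 ATPases lower and none higher, and 6 of 11 non-ATPase subunits lower and 1 higher. The lowest fold changes were those of *Psmc3ip* (-1.01), the lid subunit *Psmd8* (-0.73), the alpha ring subunit *Psma6* (-0.62) and the ATPase *Psmc3* (-0.56). The PA28 genes went with the immunoproteasome genes. *Psme1* had a median of 495.1 CPM (326.1 to 586.5) in mature and 280.1 CPM (238.3 to 396.3) in signaled cells, higher in 15 of 15 mice, with a log2 fold change of 1.22 ± 0.072 (adjusted p = 6.14e-24). *Psme2* had medians of 325.5 CPM (134.5 to 453.9) and 145.6 CPM (39.0 to 248.6), higher in 14 of 15 mice, and gave 1.79 ± 0.086 (adjusted p = 1.382e-28). Of the 7 assembly factors of the set 4 rose, among them *Psmg4* (0.69), *Psmg1* (0.63) and *Psmd5* (0.51), *Psmd9* (-0.24) fell and 2 were not called, while *Pomp*, outside the set, fell as given above. The structural beta subunit *Psmb1* (0.54) rose.

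*Psme2b* gave the largest value, 5.92 ± 0.25, from 8 UMIs in signaled and 1527 in mature cells over all mice. The 8 UMIs came from 5 of 17 mice, so it passed the filter on low counts only through the mature cells. Its place among the genes counted as higher was thus largely fixed in advance. The same limit holds for *Psme2b* in the CD8 SP-like comparison. Its transcript is 99.4% identical to that of *Psme2* over 794 aligned bases, and the last 300 bases are 99.0% identical. Reads of either gene may have been counted to the other, so the level of *Psme2b* is uncertain and the values of *Psme2* carry the same limit. *Psme2* had 1567 UMIs in signaled and 14546 in mature cells, so *Psme2b* was not a fixed share of *Psme2*. The part of shared reads was not tested.

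Other genes of antigen presentation moved beside them. Of the MHCI processing list 9 of 12 rose and 0 fell, with *H2-K1* (4.82) and *H2-D1* (3.15), both MHCI heavy chains, and *Nlrc5* (3.61), the transactivator of MHCI genes, farthest. Of the interferon response list 16 of 16 rose, *Isg15* (3.86) and *Irf1* (2.69) among them. Fewer genes of both lists passed the filter on low counts in the comparison of signaled with quiescent cells. *Nlrc5* had a median of 2.63 CPM in signaled and 32.9 CPM in mature cells, and such genes were tested here only through the mature cells. Their calls, and so the counts for both lists, were in part fixed in advance. The summed level of the 6 myeloid marker genes ranged from 31.2 to 213.5 CPM in signaled and from 41.0 to 90.3 CPM in mature cells, and *Siglech* among them was at 0 in signaled cells.

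**Figure D2:**
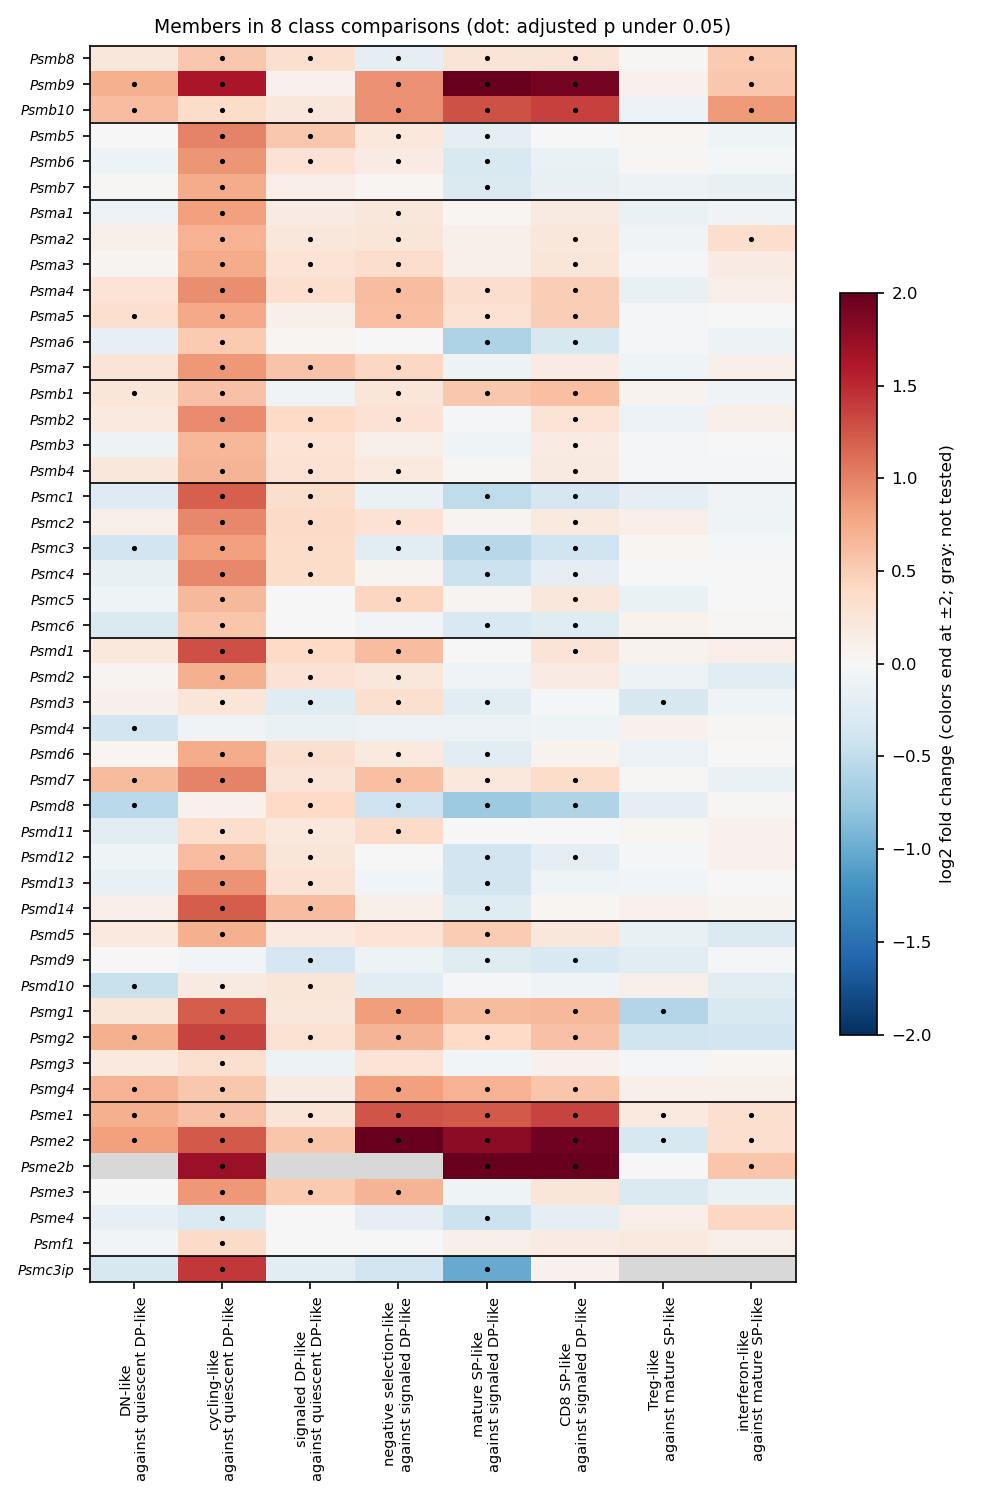
Log2 fold changes (color, ending at ±2) of the 48 testable proteasome genes (rows, grouped by role) in 8 comparisons of cell classes (columns), with a dot at an adjusted p under 0.05 and gray where a gene was not tested. The cycling-like column is nearly all positive, with 44 of 48 genes called higher, whereas the mature SP-like column pairs increases of *Psmb9*, *Psmb10*, *Psme1* and *Psme2* with decreases of 19S subunits.

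The size of the change rested on how cells were assigned. When cells were gated on the CD4 and CD8a antibody counts alone, CD4+CD8- against CD4+CD8+ cells of 17 mice gave a log2 fold change of 0.62 for *Psmb9* (adjusted p = 0.0007533) and 0.66 for *Psmb10* (adjusted p = 9.049e-05), with 0.13 for *Psmb8* (adjusted p = 0.08193). That gate does not separate mature from immature CD4+CD8- cells. In clusters built without correction for experiment, *Psmb9* gave 0.67 and *Psmb10* 0.31, in 7 mice, and 5 proteasome genes rose and 13 fell (23.6% of all genes tested called).

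CD8 SP-like cells, compared with signaled DP-like cells in 14 mice, shared the immunoproteasome part of this pattern, though not in every genotype. The signaled DP-like samples were mostly the same ones. *Psmb9* had a median of 180.7 CPM (0 to 256.7) in CD8 SP-like and 71.8 CPM (0 to 112.98) in signaled cells and was higher in 10 of 14 mice, with a log2 fold change of 1.92 ± 0.137 (adjusted p = 1.233e-15). In CPM it did not rise in the CD8-fated F5 mice. F5 replicate 1 had 79.5 CPM in CD8 SP-like and 82.4 CPM in signaled cells, and F5 replicate 2 had 101.8 and 101.9 CPM. AND replicate 1 and OT-II replicate 2 were not higher either. *Psmb10* gave 1.36 ± 0.115 and was higher in 12 of 14 mice, and *Psmb8* gave 0.26 ± 0.081 (adjusted p = 0.006288) but was higher in CPM in 4 of 14. The constitutive genes were not called, at 0.01 ± 0.075 for *Psmb5*, -0.14 ± 0.073 for *Psmb6* and -0.15 ± 0.075 for *Psmb7*. In all, 21 of 48 genes rose and 8 fell (31.3% and 23.2% of all genes tested). The cap genes *Psme1* (1.36) and *Psme2* (1.95) and the factors *Psmg1* (0.65), *Psmg2* (0.58) and *Psmg4* (0.55) rose, and *Psmb1* (0.61) did too. *Psmd8* (-0.60), *Psmc3* (-0.40), *Psmc1* (-0.34) and *Psma6* (-0.32) fell. The MHCI processing list had 11 of 12 genes higher and 1 lower, and the interferon response list 15 of 16 higher. These counts again include genes that passed the filter only through the higher class. Scaling by library totals alone turned the split to 6 higher and 29 lower (15.1% and 53.2% of all genes tested, whose median moved to -0.37), with *Psmb8* at -0.16 (adjusted p = 0.05973), *Psmb5* at -0.41 (adjusted p = 1.15e-05) and *Psmb6* at -0.56 (adjusted p = 2.743e-08), so whether the constitutive genes fell rested on the scaling. In experiments 6 and 7 alone *Psmb8* stood at 0.12 (adjusted p = 0.3217). The lineage-restricted mice alone gave 17 called proteasome genes (40.8% of all genes tested) and experiment 8 alone 14 (34.6%).

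The cycling-like class differed in another way, with nearly the whole proteasome higher. Cycling-like cells, compared with quiescent DP-like cells in 17 mice, had 44 of 48 genes higher and 1 lower, where 38.2% and 39.3% of all genes tested were, and the median log2 fold change was 0.74 against -0.03. Every 19S ATPase, alpha ring, structural beta and catalytic gene was called higher. *Psmb9* had a median of 186.3 CPM (56.6 to 267.9) in cycling and 70.7 CPM (26.6 to 144.4) in quiescent cells, was higher in 17 of 17 mice, and gave 1.63 ± 0.104 (adjusted p = 2.111e-14). *Psmb5* had medians of 338.5 CPM (110.2 to 397.1) and 211.8 CPM (70.8 to 251.9), was higher in 17 of 17 mice, and gave 0.99 ± 0.053 (adjusted p = 3.45e-16). *Psmb6* (0.89) and *Psmb7* (0.74) followed, with *Psmb8* at 0.53 and *Psmb10* at 0.36. *Psmg2* (1.35), *Psmd1* (1.30), which encodes the largest scaffold of the 19S base, *Psmd14* (1.21) and *Psmc3ip* (1.41) were also far up. *Psme4*, the PA200 activator, fell by 0.29, and *Psmd4*, *Psmd8* and *Psmd9* were not called. Of the genes around the proteasome, *Uchl5* (1.71) and *Usp14* (1.50), both deubiquitinases of the 19S particle, and *Pomp* (0.61) rose, and the list of ubiquitin and p97 genes had 9 of 9 higher. With library totals alone 38 proteasome genes rose and 4 fell (26.8% and 54.3% of all genes tested), and *Psmb10* stood at 0.07 (adjusted p = 0.4458). The cycling-like class may mix stages. *Nlrc5*, higher in mature SP-like than in signaled DP-like cells, was at 5.45 to 12.1 CPM in its cells from sorted WT mice. It was at 2.48 and 3.64 CPM in unsorted WT and at 7.81 and 12.4 CPM in OT-I mice. The part of stage in this comparison was not tested.

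Negative selection-like cells were compared with signaled DP-like cells in 12 mice. Here 27 of 47 genes rose and 3 fell (25.9% and 25.0% of all genes tested), with a median of 0.23 against -0.03 over all genes. *Psme2* had a median of 466.4 CPM (173.7 to 612.9) against 139.0 CPM (39.0 to 248.6), was higher in 12 of 12 mice, and gave a log2 fold change of 2.03. *Psme1* gave 1.26 and *Psmb10* and *Psmb9* 0.92 each, higher in 12, 12 and 11 of 12 mice. *Psmb8* went the other way. Its median was 611.3 CPM (319.4 to 708.3) against 807.4 CPM (386.2 to 907.7), it was higher in 1 of 12 mice, and it fell by 0.19 on the log2 scale (adjusted p = 0.001616). *Psmb5* (0.21) and *Psmb6* (0.17) rose slightly and *Psmb7* (0.05) was not called. The factors *Psmg1* (0.84), *Psmg4* (0.82) and *Psmg2* (0.68) and the activator *Psme3* (0.68) rose, and *Psmd8* (-0.42) and *Psmc3* (-0.22) fell, as did *Pomp* (-0.35). In clusters built without correction for experiment, *Psmb8* was 0.22, *Psmb9* -0.38 and *Psmb10* -0.15, so the direction of all 3 rested on that step, and 15 proteasome genes rose and 3 fell (34.9% of all genes tested called). In experiment 8 alone 14 rose and 1 fell (28.1%). With library totals alone 16 genes rose and 13 fell (17.3% and 40.8% of all genes tested).

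Interferon-like cells, named from interferon response genes, were compared with mature SP-like cells in 12 mice, and the calls were few and narrow. There were 7 of 47 genes higher and 0 lower, where 6.13% and 6.01% of all genes tested were. DESeq2 also called 0 lower, and 10 genes had an unadjusted p under 0.05 in either direction. The 7 called genes were the 3 immunoproteasome genes, the PA28 genes *Psme1* (0.33) and *Psme2* (0.34), *Psme2b* (0.55) and the alpha ring subunit *Psma2* (0.35). *Psmb8* had a median of 1025 CPM (487.5 to 1455) in interferon-like and 676.0 CPM (357.4 to 831.7) in mature cells, was higher in 12 of 12 mice, and gave 0.52 ± 0.062 (adjusted p = 1.66e-10). *Psmb10* had medians of 323.4 CPM (87.5 to 657.6) and 178.8 CPM (66.6 to 199.3), was higher in 12 of 12 mice, and gave 0.85 ± 0.077 (adjusted p = 2.02e-15). *Psmb9* gave 0.54 (adjusted p = 1.519e-07) and was higher in 11 of 12 mice, and in the mice of experiment 8 alone it gave 0.39 (adjusted p = 0.1661). The constitutive genes were not called, at -0.09 for *Psmb5*, -0.02 for *Psmb6* and -0.14 for *Psmb7*. Of the MHCI processing list 5 of 12 rose, *Tapbp* (0.87), *Tap1* (0.79) and *Nlrc5* (0.75) farthest. The lineage-restricted mice alone gave 4 called proteasome genes (7.41% of all genes tested) and experiment 8 alone 2 (8.96%), all higher.

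Regulatory T (Treg)-like cells differed little from mature SP-like cells in 9 mice. Of 47 genes 1 rose and 3 fell (13.2% and 11.2% of all genes tested), namely *Psme1* (0.20) up and *Psmg1* (-0.59), *Psmd3* (-0.31) and *Psme2* (-0.31) down. The 6 catalytic genes lay between -0.12 and 0.09 and none was called. This rested on the clustering, since in clusters built without correction for experiment 10 genes rose and 1 fell in 6 mice (13% of all genes tested called), with *Psmb10* at 0.64 (adjusted p = 0.03698), *Psmb5* at 0.53 (adjusted p = 0.04723) and *Psmb8* at 0.38 (adjusted p = 0.04366). By edgeR 0 were called in the 4 lineage-restricted mice alone (11.9% of all genes tested, 1 with an unadjusted p under 0.05) and 0 in the 2 mice of experiment 8 alone (7.04%, 5 with an unadjusted p under 0.05). Double-negative (DN)-like cells, compared with quiescent DP-like cells in 7 mice, had 9 of 47 genes higher and 4 lower (17.5% and 16.2%). *Psme2* (0.83), *Psmb9* (0.72; adjusted p = 0.001241), *Psme1* (0.71), *Psmg2* (0.71) and *Psmb10* (0.62) were among those that rose, while *Psmb8* stood at 0.23 (adjusted p = 0.08087). *Psmd8* (-0.54), *Psmd10* (-0.45), *Psmc3* (-0.39) and *Psmd4* (-0.38) fell. In clusters built without correction for experiment 35 proteasome genes rose and 2 fell in 8 mice, where 57.8% of all genes tested were called in either direction, with *Psmb5* at 0.88 (adjusted p = 6.515e-05) where the corrected clusters gave -0.0035. With library totals alone the DN-like split was 7 higher and 8 lower (13.6% and 25.9% of all genes tested). In experiments 6 and 7 alone (3 mice) 6 rose and 0 fell (19.4% of all genes tested called). Library totals alone moved the median of all genes to -0.32 in the cycling-like, -0.21 in the negative selection-like and -0.15 in the DN-like comparison.

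The balance of the catalytic genes was summed as the log2 ratio of *Psmb8*, *Psmb9* and *Psmb10* UMIs over *Psmb5*, *Psmb6* and *Psmb7* UMIs, per mouse and class. It is a ratio of counted molecules, not of protein, and is free of the choice of scaling. It was 0.503 ± 0.240 in quiescent DP-like (SD, n = 17), 0.483 ± 0.254 in signaled DP-like (n = 17) and 0.344 ± 0.224 in CD4 SP-like cells (n = 15). These means differed by less than the SD over mice, a spread that does not use the pairing by mouse. It was 1.20 ± 0.264 in mature SP-like (n = 15), 1.03 ± 0.245 in CD8 SP-like (n = 14), 1.35 ± 0.126 in Treg-like (n = 9) and 1.95 ± 0.221 in interferon-like cells (n = 12). Among classes with at least 7 mice the lowest mean was in cycling-like cells, at 0.253 ± 0.207 (n = 17), where both kinds of subunit rose, and NKT-like (0.844, n = 11), DN-like (0.973, n = 7) and myeloid-like cells (0.624, n = 15) lay between.

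Within mice, the ratio in mature SP-like cells exceeded that in signaled DP-like cells by 0.747 ± 0.323, in 14 of 15 mice, and that in CD4 SP-like cells by 0.858 ± 0.282, in 15 of 15 mice. Interferon-like cells exceeded mature SP-like cells by 0.694 ± 0.202, in 12 of 12 mice. CD8 SP-like cells exceeded signaled DP-like cells by 0.5258 ± 0.446, in 11 of 14 mice. The signaled and quiescent DP-like cells differed by -0.0203 ± 0.234. Treg-like cells differed from mature SP-like cells of the same mice by 0.0068 ± 0.174 and were higher in 4 of 9 mice. By pairs of counterparts, the mean of mature SP-like cells exceeded that of signaled DP-like cells by 0.326 for *Psmb8* over *Psmb5*, 1.89 for *Psmb9* over *Psmb6* and 1.34 for *Psmb10* over *Psmb7*. The 3 mice of the second set of lanes had means of 0.760 in quiescent DP-like, 0.7101 in signaled DP-like, 0.6996 in CD4 SP-like, 1.39 in mature SP-like and 2.13 in interferon-like cells. The other mice had 0.448, 0.435, 0.256, 1.16 and 1.89, so these 5 classes kept their order without those mice. The gamma-delta T-like mean, 1.14 over all 7 mice, was 0.765 in the 4 other mice, which moved it from above to below CD8 SP-like, DN-like and NKT-like cells.

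**Figure D3:**
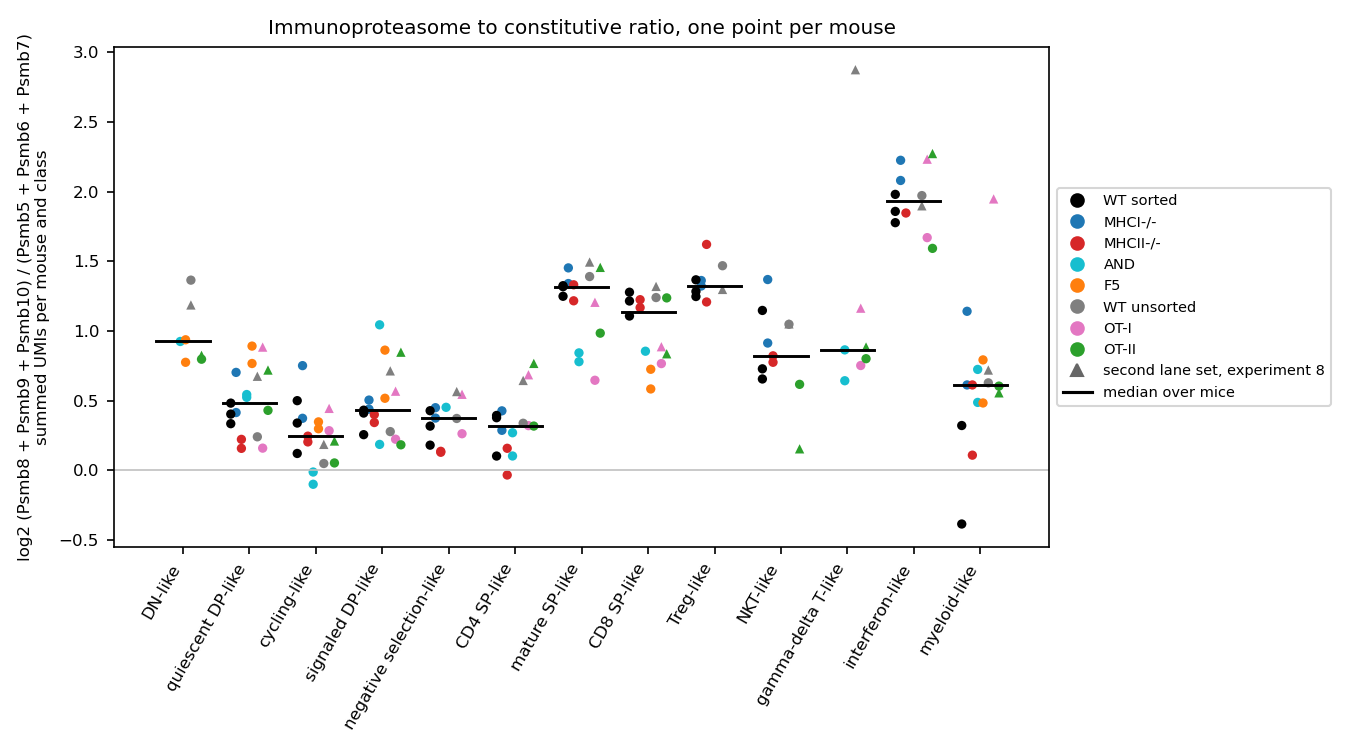
Log2 ratio of immunoproteasome to constitutive catalytic UMIs (y axis) in 13 cell classes (x axis), with a point for each mouse, triangles for the second set of lanes of experiment 8 and a line at the median. The medians of mature SP-like, CD8 SP-like, Treg-like and interferon-like cells lie above those of the DP-like and CD4 SP-like cells. CD4 SP-like and CD8 SP-like cells are not matched for maturity. Points of mature SP-like and CD8 SP-like cells overlap those of the DP-like cells.

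Genotype comparisons addressed whether the MHC class a thymocyte can see, and so its fate, changes these genes. None was called in any of them by edgeR or by DESeq2, but the standard errors were wide and the absence of a call does not bound the differences. In signaled DP-like cells, CD4-fated against CD8-fated mice (6 and 6) gave 0 of 47 genes, where 0.0391% of all genes tested were called, and 7 had an unadjusted p under 0.05. *Psmb8* stood at -0.50 ± 0.22 on the log2 scale (adjusted p = 0.6787), *Psmb9* at 0.08, *Psmb10* at -0.32 and *Psmb5* at -0.53. The median of the 47 genes was -0.31 beside -0.17 over all genes tested. The change from quiescent to signaled DP-like cells was compared between the fates in 12 mice by a test of that difference, which called 0 of 47 genes (0.0122% of all genes tested, 2 with an unadjusted p under 0.05). AND mice gave only 10 and 11 signaled DP-like cells. In the comparison of CD4-fated with CD8-fated mice the AND mean still counted as much as that of each other CD4-fated group.

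In MHCI-/- against sorted WT mice (2 and 3), 0 of 47 genes were called in signaled DP-like cells (0.0261% of all genes tested, 0 with an unadjusted p under 0.05) and 0 of 48 in mature SP-like cells (0.0295%, 1 with an unadjusted p under 0.05). *Psmb9* in mature SP-like cells was at 278.2 and 293.4 CPM in MHCI-/- and at 245.5, 246.2 and 260.5 CPM in sorted WT mice. The groups did not overlap, and the log2 fold change of 0.24 ± 0.392 was not called (adjusted p = 1). *Psmb8* in these cells was at 707.8 and 761.2 CPM against 653.4, 683.7 and 703.8 CPM, and *Psmb10* at 193.7 and 199.3 CPM against 175.6, 182.0 and 193.1 CPM. *B2m*, whose product pairs with the MHCI heavy chain, was lower by a log2 fold change of -4.05 in the same test. In mice labelled MHCII-/- against sorted WT mice (2 and 3), 0 of 47 genes were called in signaled DP-like cells (0.0651% of all genes tested, 0 with an unadjusted p under 0.05) and 0 of 48 in CD8 SP-like cells (0.0864%, 0 with an unadjusted p under 0.05). In clusters built without correction for experiment the signaled DP-like comparison called *Psmb9* (-0.78; adjusted p = 0.01958) and *Psme2* (-0.58; adjusted p = 0.01632), both lower in the mice labelled MHCII-/- (2.14% of all genes tested were lower). *Psmb9* in CD8 SP-like cells was at 250.5 and 244.3 CPM in those mice, within the 218.2 to 256.7 CPM of sorted WT mice.

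In the OT families against unsorted WT mice (2 and 2 each), 0 of 47 genes were called for OT-I (0.0912% of all genes tested, 0 with an unadjusted p under 0.05) and 0 for OT-II (0.0782%, 3 with an unadjusted p under 0.05). Without WT replicate 4 the OT-I comparison called 4 genes, all higher (0.549% of all genes tested were higher and 1.09% lower), with a single WT mouse assumed to vary like the other groups. In each of these groups 1 mouse was in the second set of lanes. *Psmb8* in signaled DP-like cells was at 836.6 and 386.2 CPM in OT-I, 571.4 and 218.1 CPM in OT-II and 778.1 and 426.3 CPM in unsorted WT mice, the lower value of each pair being the mouse of those lanes. Within each lane set OT-II was below WT, while OT-I was above WT in one set and below in the other. With the lane set as a block, a fit added after seeing the data, 0 of 46 genes were called for OT-I (1.35% of all genes tested, 3 with an unadjusted p under 0.05) and 0 of 44 for OT-II (0.761%, 4 with an unadjusted p under 0.05). *Psmb8* then stood at -0.56 ± 0.245 on the log2 scale in OT-II (adjusted p = 0.4237) and at 0.09 ± 0.175 in OT-I (adjusted p = 0.9523).

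**Figure D4:**
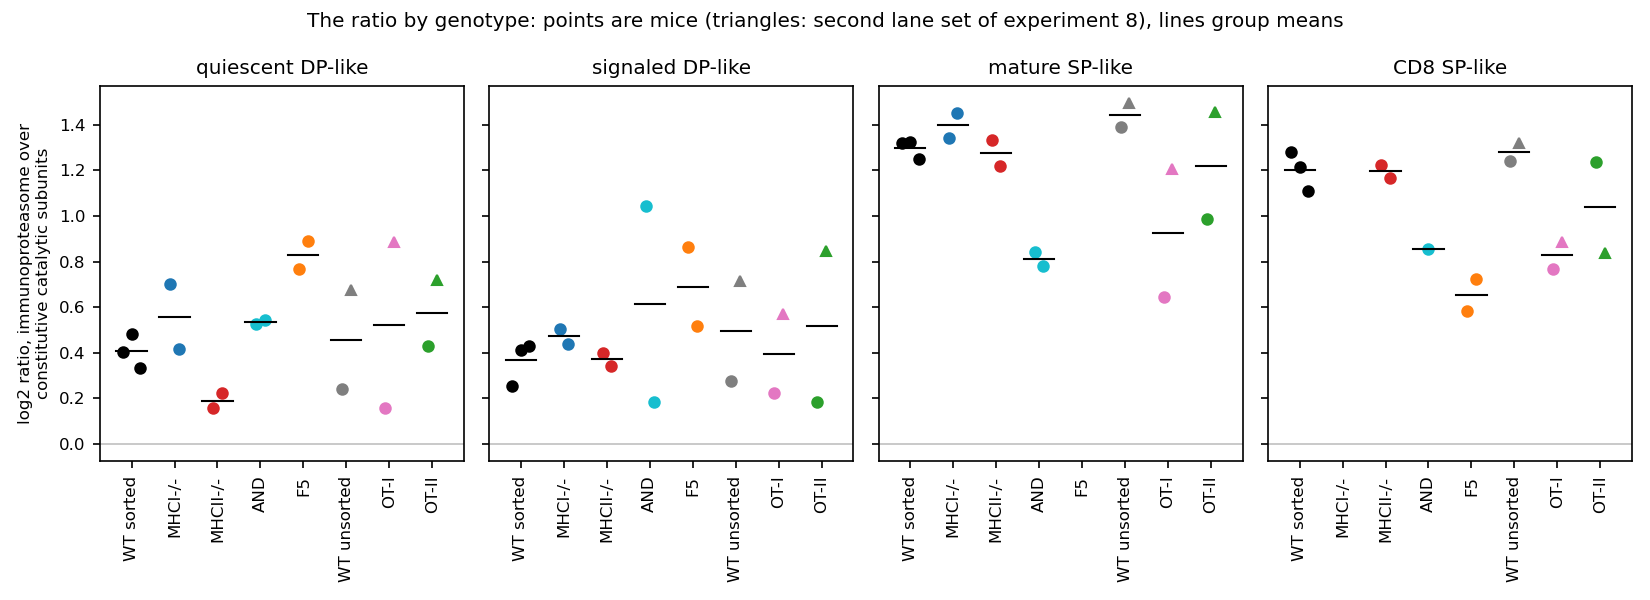
Log2 ratio of immunoproteasome to constitutive catalytic UMIs (y axis) by group (x axis) in quiescent DP-like, signaled DP-like, mature SP-like and CD8 SP-like cells, with a point for each mouse, triangles for the second set of lanes of experiment 8 and a line at the group mean. The AND mice lie at 0.780 and 0.843 in mature SP-like cells and the F5 mice at 0.584 and 0.725 in CD8 SP-like cells, below all WT mice.

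As a description with no test, the ratio of some TCR transgenic groups lay apart from that of WT mice. In mature SP-like cells it was 0.780 and 0.843 in the AND mice and 0.647 and 1.21 in the OT-I mice, against 1.25 to 1.33 in sorted and 1.39 and 1.49 in unsorted WT mice. The MHCI-/- mice, at 1.34 and 1.45, lay above the sorted WT mice and the MHCII-/- mice, at 1.22 and 1.33, around them. In this class the MHCII-/- values rest on 21 and 32 cells and the OT-I values on 179 and 258. The AND values came with 116.7 and 115.5 CPM of *Psmb9*, below 4 of the 5 WT mice and above WT replicate 5 (83.3 CPM), and with *Psmb5* at 177.0 and 186.2 CPM, close to the 183.5 to 198.2 CPM of sorted WT mice. In CD8 SP-like cells the ratio was 0.584 and 0.725 in the F5 mice and 0.766 and 0.887 in the OT-I mice, against 1.11 to 1.28 in sorted and 1.24 and 1.32 in unsorted WT mice. *Psmb9* in these cells was at 79.5 and 101.8 CPM in F5 and at 143.2 and 52.5 CPM in OT-I mice. In quiescent DP-like cells the F5 mice were instead among the highest, at 0.767 and 0.892, and the MHCII-/- mice among the lowest, at 0.158 and 0.223. The AND and F5 mice were unsorted, the WT mice of their experiments were all sorted, and the unsorted WT mice came from another experiment. No WT mouse thus matched them in both sort and experiment, and they were also *Rag1*-/-. After the filters AND replicate 1 kept 2544 of 2750 barcodes and AND replicate 2 kept 1901 of 4518. The makeup of each class by maturity could also differ between groups. The part of sort, experiment, *Rag1*, filtering and makeup in these values was not tested.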

How the data were processed

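The deposited files held whole UMI counts per gene and cell from 19 lanes of 10x 3′ libraries, which the authors made with Cell Ranger 3.1.0 against mm10 (GRCm38), per the labels. Per the file headers, 11 lanes were written by software 3.0.2 and 8 by 3.1.0. As in the methods of the study, cells were kept with at most 15% mitochondrial UMIs, at least 200 genes, 1000 to 10000 antibody UMIs and at least 70 of 111 proteins, which left 72054 of 85389 barcodes (79569 on the RNA filters alone). Simulated doublets led to the removal of 2551 cells (3.54%), so that 69503 were used. Cell types were assigned here, with cells clustered on 2000 variable genes without the proteasome genes (30 principal components, 20 neighbors, Leiden at resolution 1). The components were corrected for 4 runs in the manner of Harmony, a step chosen after seeing the data. This gave 26 clusters, of which 20 were named from marker genes and 18470 cells stayed unnamed.

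Counts were summed per mouse and class where a mouse had at least 10 cells, with the 2 lanes of WT replicates 4 and 5 added up. Classes were compared within mice (mouse as block) and genotypes as group means with edgeR 4.0.16 (quasi-likelihood test, TMM, filterByExpr, R 4.3.3), with Benjamini-Hochberg adjustment over all genes tested and calls at an adjusted p under 0.05. The mice were separate animals. Each test across all genes was tested on simulated data. Named were the 6 catalytic genes, *Psme1*, *Psme2* and *Pomp*, in each comparison the 4 called genes farthest up and farthest down (and a few others of the set, chosen after their values were seen), and up to 3 called genes of a list. Members, lists and comparisons were chosen with earlier results of these data known. Alternatives were DESeq2 1.42.0, no low-count filter, library totals alone, at least 50 cells, doublets kept, no antibody filters, subsets of mice, each mouse left out, antibody gates, a replicate block, a lane set block and uncorrected clusters. Sequences came from RefSeq and positions from GRCm38.p6, with a promoter window matched for 42 of the 50 genes. Mouse numbers follow the experiment for AND and F5 and the lane sets in experiment 8, and mark no shared batch for MHCI-/- and MHCII-/- mice.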

Additional observations from a re-analysis of the deposited data

Results flagged for a closer look

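All 4 results that stood apart from the other mice of their class belonged to WT replicate 5, a mouse of the second set of lanes of experiment 8. In gamma-delta T-like cells its immunoproteasome to constitutive log2 ratio was 2.874, while the other 6 of 7 mice lay between 0.6432 and 1.164. That ratio rested on 11 cells with 22 immunoproteasome and 3 constitutive UMIs, and *Psmb5* and *Psmb7* were at 0 in them. Of the 9 mice with Treg-like cells it was the only mouse from those lanes. In these cells it was the lowest for *Psmb8*, at 369.4 CPM against 652.1 to 912.0 CPM in the others. It was also the lowest there for *Psmb9*, at 69.26 CPM against 241.9 to 337.5 CPM, and for *Psmb6*, at 80.81 CPM against 145.2 to 203.7 CPM. In each case the gap to the nearest mouse exceeded Dixon's 95% limit for the number of mice. In 21 such groups tested, chance alone marks about 1 in 20. The 3 mice of those lanes also had the lowest share of UMIs in proteasome genes, and the part of the lanes in these values was not tested.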

How the results depend on the processing

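All but 23 recomputed values kept a count of called proteasome genes within 1.5 times the reported count, or a ratio within 1 SD. The cause of the exceptions was not tested where fewer mice do not show it. With lineage-restricted mice alone, 10 genes were called between signaled and quiescent DP-like, 17 between mature SP-like and signaled DP-like, 17 between CD8 SP-like and signaled DP-like, 0 between Treg-like and mature SP-like and 4 between interferon-like and mature SP-like cells. With experiment 8 alone these were 19, 19, 14, 0 and 2, and 15 for negative selection-like cells, and with experiments 6 and 7 alone 6 for DN-like cells. In uncorrected clusters the counts were 18 for mature SP-like (5 higher and 13 lower), 11 for Treg-like, 18 for negative selection-like, 37 for DN-like and 2 for MHCII-/- against sorted WT signaled DP-like cells, and the ratios were 0.8585 in mature SP-like and 1.321 in interferon-like cells. There *Psmb10* in Treg-like cells turned to 0.6391, *Psmb8*, *Psmb9* and *Psmb10* in negative selection-like cells to 0.2216, -0.3817 and -0.1457, and *Psmb5* and *Psmb6* in DN-like cells to 0.879 and 0.426. Library totals alone turned *Psmb8* to -0.1752 in mature SP-like and -0.1585 in CD8 SP-like, *Psmb5* to -0.409 in CD8 SP-like and *Psmb6* to -0.01918 in negative selection-like cells. By pairs, the mature SP-like less signaled DP-like ratio was 0.3257 (*Psmb8* over *Psmb5*), 1.888 (*Psmb9* over *Psmb6*) and 1.339 (*Psmb10* over *Psmb7*). Of single-gene values 1107 kept direction and side of the threshold, 25 became and 40 ceased to be called, and 10 reversed, as given above. Leaving out each mouse gave 0 to 4 genes for OT-I against unsorted WT and 0 in the other genotype comparisons.

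With a replicate block CD4-fated against CD8-fated cells again gave 0 genes. The correlation of deviations of same-numbered mice over 7675 genes was 0.012 for AND and F5, whose numbers follow the experiment, 0.0062 for MHCI-/- and MHCII-/-, all of experiment 7, and 0.128 for the OT mice, whose numbers follow the lane sets. For the OT mice the fits with the lane set as a block also called 0 genes. Tests with at least 50 cells could not be fitted for CD4-fated against CD8-fated, OT-I and OT-II, nor the first in uncorrected clusters. With 2 or 3 mice a group and as few as 10 cells, large genotype differences could also have been missed.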

Other observations

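Across 169 sums of mouse and class, which share mice, libraries and depth, the immunoproteasome genes varied together. The Pearson correlation of log2 CPM was 0.720 between *Psmb8* and *Psmb10*, 0.718 between *Psmb8* and *Psmb9* and 0.621 between *Psmb9* and *Psmb10*. Among the constitutive genes it was 0.796 between *Psmb5* and *Psmb7*, 0.777 between *Psmb5* and *Psmb6* and 0.638 between *Psmb6* and *Psmb7*. Between the sets it ran from 0.254 for *Psmb10* and *Psmb7* to 0.641 for *Psmb8* and *Psmb6*.

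Of 5930 other genes with a mean of at least 20 CPM, those most like the 3 immunoproteasome genes by mean correlation were the ribosomal protein genes *Rpl19* (0.730), *Rpl9* (0.719), *Rps6* (0.698), *Rpl29* (0.695), *Rpl7a* (0.694) and *Rpl7* (0.692). Those most like the constitutive genes were *Uqcrfs1* (0.802), *Ndufs8* (0.794) and *Cyc1* (0.793), all of the respiratory chain, with the coactivator gene *Edf1* (0.802), the mitochondrial ribosomal gene *Mrpl18* (0.789) and the ribosome assembly factor gene *Eif6* (0.778). These are descriptions of likeness over the same libraries.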
